A study of Mus musculus with 4 samples.

Results

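Chemokines are small secreted proteins that attract cells carrying matching receptors, and both sides of this exchange were read here in cells grown from mouse embryonic stem (ES) cells and sorted by their surface KSP. The genes were chosen by symbol. Every probe set assigned to a single gene was taken where that gene is named Ccl, Cxcl, Ccr or Cxcr followed by a number, or is Cx3cl1, Cx3cr1, Xcl1 or Xcr1. The rule found 77 of 34945 single-gene probe sets, which read 49 of 18193 genes: 33 ligands and 16 receptors.

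KSP, kidney-specific cadherin, is an adhesion protein of kidney tubule cells encoded by Cdh16, and an antibody to its extracellular part was used to sort the cells. The KSP-positive cells (2 arrays) and the KSP-negative cells (2 arrays) both came from the CAG-GFP EB3 line, an ES cell line in which the CAG promoter drives GFP in all cells. Both had been differentiated through embryoid bodies with Activin at 10 ng/mL and were sorted on day 18 as living, GFP-positive cells. Both had also been treated with an antibody to CD16/CD32, which blocks Fc receptors, before the staining. The sort goes by 1 surface protein, so either fraction can hold several cell types, and all cells descend from 1 line. The RNA was collected in 2 independent experiments, but no source ties the replicate numbers to them. The p-values therefore measure the spread between these 4 arrays.

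Chemokines fall into CC, CXC, CX3C and XC families by the spacing of cysteines near their amino terminus. They are held on heparan sulfate at the cell surface and signal through receptors with 7 transmembrane helices coupled to Gi proteins. Inflammatory chemokines are switched on by NF-kappaB and interferon signals in macrophages, fibroblasts, endothelium and epithelium, whereas homeostatic ones are made steadily and position cells in tissues. In the kidney they are best known for drawing neutrophils and monocytes into injured tubules, and Cxcl12 for its part in vessel formation during development.

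Signals on all arrays were set to a common 75th percentile of 281, and values under 12.3 were raised to this floor before log2 values were taken. Levels of different genes are read by different probes and were not compared with each other. Between replicates the arrays correlated at 0.945 in both fractions, and between fractions at 0.856 to 0.921 (Pearson's r of log2 signals over genes, which do not count as replicates). The ratio of 3′ to 5′ actin signal, a measure of RNA integrity and labelling, was 2.92 and 1.80 in KSP-positive replicates 1 and 2. In KSP-negative replicates 1 and 2 it was 1.79 and 3.55. The Gapdh ratio was 3.11 and 1.86 in KSP-positive cells and 2.02 and 2.72 in KSP-negative cells. KSP-negative replicate 2 thus had the highest actin ratio, and the part of this in the differences was not tested. Cdh16 itself had signals of 50.5 and 32.6 in KSP-positive cells and 39.3 and 26.3 in KSP-negative cells (adjusted p = 0.816), so the 2 fractions overlapped for the transcript of the sorted protein.

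Of the 49 genes, 29 passed the filter on low values, a mean log2 signal over 5.14, or 35.4 as a signal. These 29 were tested among 12849 genes with limma. Genes of several inflammatory ligands were higher in KSP-positive cells. At an adjusted p under 0.05, 11 of the 29 genes were higher, where 1.84% of all genes tested were, and 0 were lower, where 1.65% of all genes were. At an unadjusted p under 0.05, 13 members were higher and 0 lower, where 2284 of the 12849 genes tested passed in either direction. The genes called were Cxcl2, Cxcl3, Cxcl10, Cxcl12, Ccl2, Ccl3, Ccl4, Ccl7, Ccl9, Ccl12 and the receptor Ccr1. In size, 13 members were more than 2-fold higher (7.92% of all genes) and 0 more than 2-fold lower (7.66%). Both KSP-positive arrays lay above both KSP-negative arrays for 15 members (24.4% of all genes) and below them for 0 (24.6%). The median log2 difference of the tested members was 0.75, against -0.03 for all genes tested. Of the tested members, 25 lay over the filter in both fractions and 7 of them were called. The other 4, Ccl7, Ccl12, Cxcl3 and Ccr1, passed only through the KSP-positive arrays and were all called, which such a filter favours. They also raise the counts past 2-fold and without overlap, and the median of the members. The count of 11 fell to 7 without KSP-negative replicate 2, and to 0 with no filter (where 0 of 18193 genes were called) or with the methods' t-test after Benjamini-Hochberg adjustment. In sorted bulk fractions, a change in the number of cells of a type and a change in RNA per cell cannot be told apart.

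**Figure D1:**
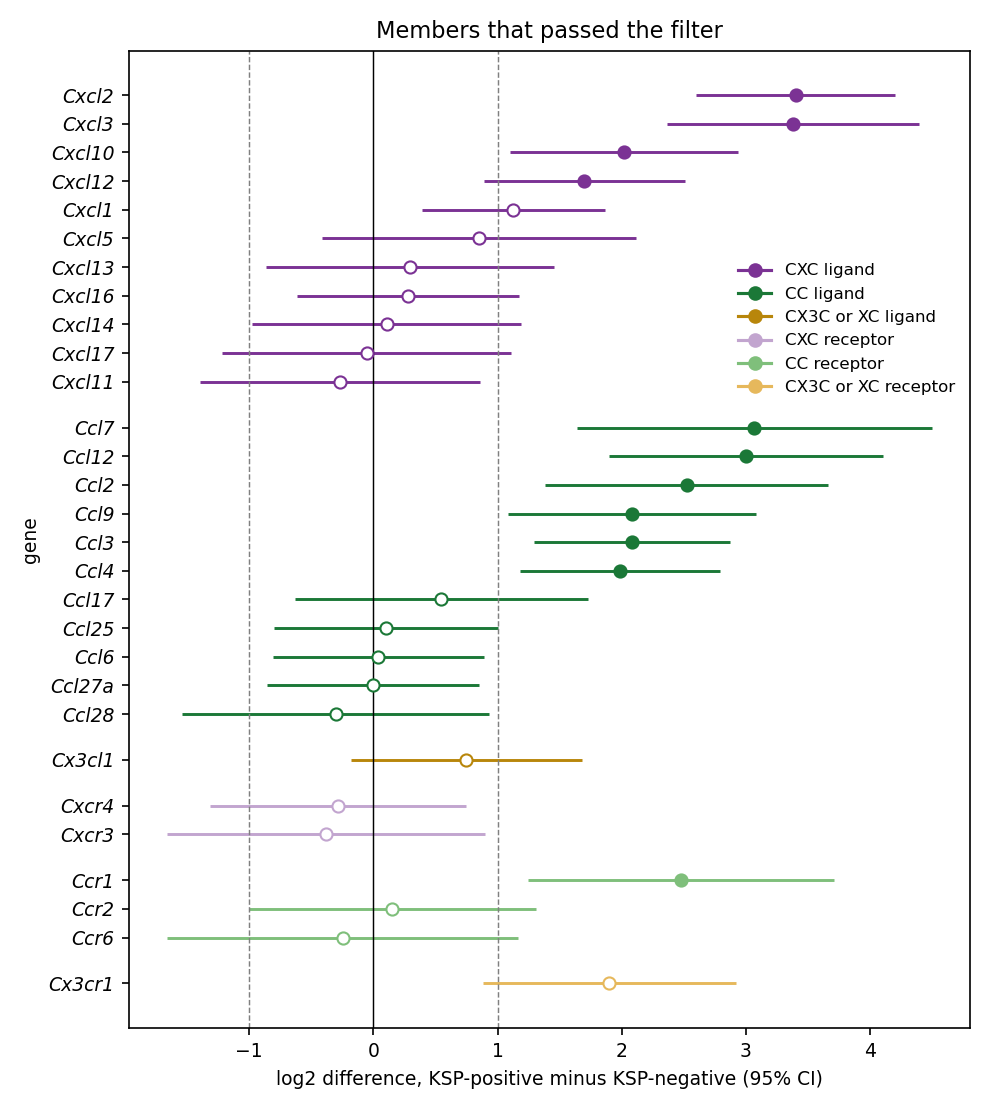
Log2 difference, KSP-positive minus KSP-negative (x axis, with 95% confidence interval), for the 29 chemokine and receptor genes tested, grouped by family; filled points have an adjusted p under 0.05 and dashed lines mark 2-fold. The filled points, 10 ligands and 1 receptor, all lie right of 0, from 1.70 for Cxcl12 to 3.40 for Cxcl2.

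The genes called were mostly ligands. Of the CXC ligands, 13 were on the array, 11 passed and 4 were higher, and of the CC ligands, 18 were on the array, 11 passed and 6 were higher. Of the receptors, 16 were on the array, 6 passed and 1 was higher. The median difference of the 23 ligands tested was 0.85, and that of the 6 receptors tested was -0.05. Both medians include genes that passed the filter only through the KSP-positive arrays. More members sat at the floor in KSP-negative cells, with 7 and 10 of the 49 genes in the KSP-positive arrays and 16 and 13 in the KSP-negative arrays. Over all probe sets, 16.8% and 22.9% were at the floor in the KSP-positive arrays and 20.9% and 19.4% in the KSP-negative arrays.

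Cxcl2 and Cxcl3, CXC ligands that attract neutrophils, gave the largest differences among the members tested. Cxcl2, also called MIP-2, had signals of 4154 and 3881 in KSP-positive cells and 490 and 295 in KSP-negative cells. Both KSP-positive arrays thus stood far above both KSP-negative arrays, and the KSP-positive replicates were close to each other. The log2 signal was 11.97 ± 0.07 in KSP-positive cells and 8.57 ± 0.52 in KSP-negative cells (SD, n = 2 each), a 10.6-fold rise (log2 difference 3.40, standard error 0.36, limma adjusted p = 0.00202). Cxcl3, a close relative from the same gene cluster, had signals of 351 and 210 in KSP-positive cells and 26.7 and 25.5 in KSP-negative cells, and was 10.4-fold higher (adjusted p = 0.00534). Cxcl1, known in the mouse as KC, lay far over the filter on every array, with 4611 and 6321 in KSP-positive cells and 2179 and 2802 in KSP-negative cells. Its groups did not overlap, but the log2 difference of 1.13 (95% interval 0.39 to 1.86) did not pass the test (adjusted p = 0.0994, and 0.0447 with quantile normalization). The probes for Cxcl1 belong to a set whose name marks them as matching related transcripts. Cxcl5, a further ligand of this kind, rested on 1 array: 48.6 and 142 in KSP-positive cells, against 46.2 and 46.0 in KSP-negative cells (adjusted p = 0.484). Cxcr2, the receptor that these ligands share, was under the floor on all 4 arrays.

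The stretches before the start sites of Cxcl2, Cxcl3 and Cxcl1 are shown because the 3 neighbours carry the same short motif at a like distance, and that of Cxcl10 because it holds matches to all 3 motifs searched. Each stretch is the 250 bases before the RefSeq start site in GRCm38.p6, read 5′ to 3′ on the strand of the gene, and capitals mark motif matches.
Cxcl2, chr5:90903649-90903898, plus strand: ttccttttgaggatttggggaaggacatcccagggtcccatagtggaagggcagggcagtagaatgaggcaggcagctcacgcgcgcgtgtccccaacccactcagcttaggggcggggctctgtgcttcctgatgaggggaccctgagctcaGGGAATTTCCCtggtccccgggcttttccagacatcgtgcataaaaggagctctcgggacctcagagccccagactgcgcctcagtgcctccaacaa
Cxcl3, chr5:90785851-90786100, plus strand: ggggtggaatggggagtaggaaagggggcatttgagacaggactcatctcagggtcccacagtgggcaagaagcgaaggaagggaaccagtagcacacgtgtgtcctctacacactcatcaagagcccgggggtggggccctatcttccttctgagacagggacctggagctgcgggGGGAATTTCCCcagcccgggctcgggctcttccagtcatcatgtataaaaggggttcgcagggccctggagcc
Cxcl1, chr5:90890995-90891244, plus strand: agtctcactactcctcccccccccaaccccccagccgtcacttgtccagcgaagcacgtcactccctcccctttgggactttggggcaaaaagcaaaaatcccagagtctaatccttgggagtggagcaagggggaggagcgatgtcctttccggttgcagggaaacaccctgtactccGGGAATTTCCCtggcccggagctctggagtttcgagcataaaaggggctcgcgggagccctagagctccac
Cxcl10, chr5:92348890-92349139, minus strand: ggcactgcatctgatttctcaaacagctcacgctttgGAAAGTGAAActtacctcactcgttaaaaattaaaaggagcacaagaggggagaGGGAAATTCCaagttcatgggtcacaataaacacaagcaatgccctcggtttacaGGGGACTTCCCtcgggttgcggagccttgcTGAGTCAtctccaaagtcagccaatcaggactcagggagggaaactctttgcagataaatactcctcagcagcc
Motifs were searched on both strands of windows that also take in 50 bases after the start: the kappaB consensus bound by NF-kappaB, the interferon response element core GAAANNGAAA, and the AP-1 core TGANTCA. The run GGGAATTTCCC, in which 2 kappaB matches on opposite strands overlap, began 97 bases before the start of Cxcl2, 73 before that of Cxcl3 and 71 before that of Cxcl1. Cxcl10 had the kappaB runs GGGAAATTCC and GGGGACTTCCC, the interferon element GAAAGTGAAA 213 bases before its start, and 1 AP-1 core. In these 4 stretches no match of one motif overlapped a match of another. Windows were found for 36 of the 49 genes, among them 8 of the 11 called, without Ccl2, Ccl4 and Ccl7. A kappaB match was in 11 of the 36, made up of 5 of the 8 called genes (Cxcl2, Cxcl3, Cxcl10, Ccl9 and Ccr1) and 6 of the other 28. These sets cannot be compared, since the other 28 include genes under the filter that could not be called. Among them, Ccl1, Ccl20 and Ccr3 hold a match. Cxcl3 and Ccr1 passed the filter only through the KSP-positive arrays. A gene was counted if any of its windows held a match, whereas the shares over all windows are per window. Of all 32851 windows, 8.46% held a kappaB match, 3.44% the interferon core and 7.81% the AP-1 core. The interferon core was in 2 of the 36 members, and the AP-1 core in 7. These are matches of letters, and no binding was measured.

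Cxcl9, Cxcl10 and Cxcl11 share the receptor Cxcr3 of T cells and are known as interferon targets. Of these, Cxcl10 was called higher, Cxcl11 was not called and Cxcl9 was not tested. Cxcl10 had signals of 556 and 503 in KSP-positive cells and 185 and 92.2 in KSP-negative cells, without overlap. It was 4.05-fold higher (log2 difference 2.02, standard error 0.42, adjusted p = 0.0274, and 0.101 without KSP-negative replicate 2). Cxcl11 had 136 and 76.3 in KSP-positive cells and 81.0 and 186 in KSP-negative cells, so the fractions overlapped (difference -0.27, 95% interval -1.40 to 0.86). Cxcl9 stayed under the filter, with 76.7 and 22.5 in KSP-positive cells and 23.2 and 21.6 in KSP-negative cells. A single KSP-positive array stood out for it. Cxcr3 itself had 56.0 and 25.6 in KSP-positive cells and 41.0 and 59.3 in KSP-negative cells, with overlap (difference -0.38, adjusted p = 0.792).

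Cxcl12, or SDF-1, is a homeostatic ligand of stromal cells that retains progenitors and guides vessels. It had signals of 2746 and 2534 in KSP-positive cells and 1072 and 616 in KSP-negative cells. The fractions did not overlap, and Cxcl12 was 3.25-fold higher (log2 difference 1.70, standard error 0.37, adjusted p = 0.0329). A further probe set of the gene gave a difference of 1.71. The adjusted p was 0.116 without KSP-negative replicate 2, with a difference of 1.30. Its signalling receptor Cxcr4 had 89.8 and 178 in KSP-positive cells and 120 and 198 in KSP-negative cells, which overlapped (difference -0.29, 95% interval -1.32 to 0.75). Ackr3, the scavenging receptor for the same ligand, had 1629 and 2633 in KSP-positive cells and 1421 and 1451 in KSP-negative cells (difference 0.53, standard error 0.35, adjusted p = 0.481). Its arrays did not overlap, yet the difference did not pass the test.

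The other CXC ligands tested overlapped between the fractions on the probe set that stood for each gene. Cxcl13, the B cell attractant of lymphoid follicles, differed by 0.29 on the log2 scale, and Cxcl16, a membrane-bound ligand of Cxcr6, 0.28. Cxcl14, made by many epithelia, had 0.11, and Cxcl17, a mucosal chemokine, -0.05. The intervals of these 4 genes lay between -1.22 and 1.46 at their outer ends, which is past 2-fold in both directions.

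**Figure D2:**
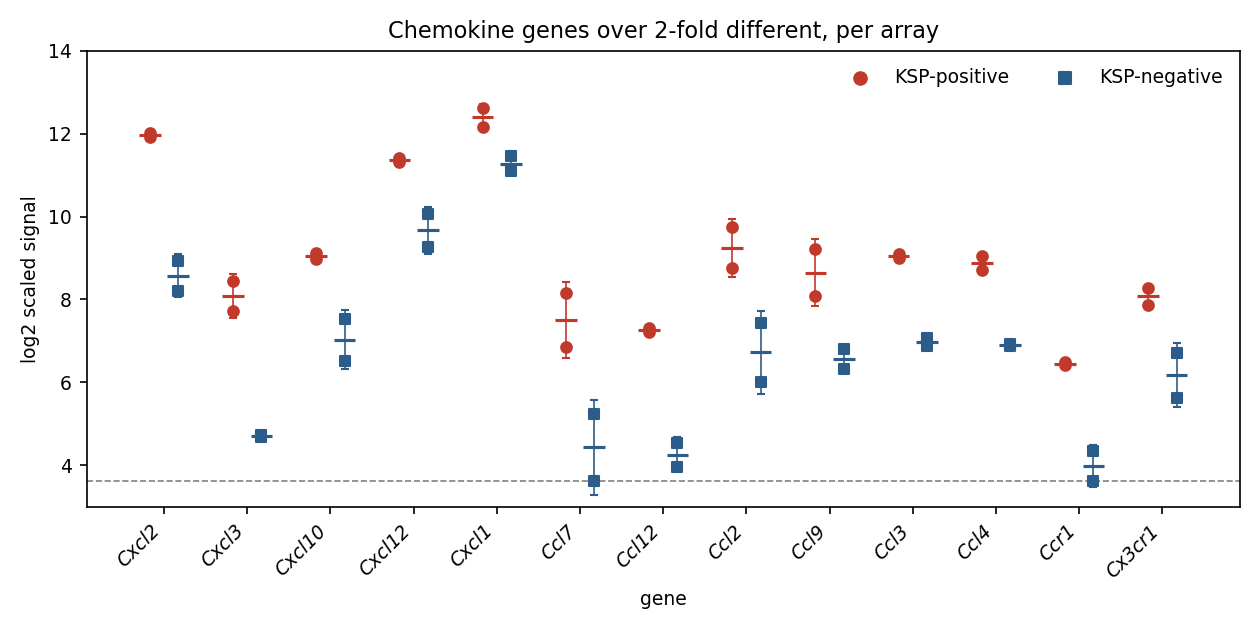
Log2 scaled signal (y axis) of the 13 chemokine genes with more than a 2-fold difference, on each array; circles are KSP-positive and squares KSP-negative arrays, bars are means with SD (n = 2 each), and the dashed line is the floor at 3.62. No circle lies below a square of the same gene, and 1 KSP-negative array sits at the floor for Ccl7 and 1 for Ccr1.

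The monocyte-attracting CC ligands, Ccl2, Ccl7 and Ccl12, were higher in KSP-positive cells together. Ccl2, or MCP-1, the main attractant of inflammatory monocytes, had 430 and 856 in KSP-positive cells and 172 and 64.6 in KSP-negative cells, a 5.75-fold rise (log2 difference 2.52, standard error 0.52, adjusted p = 0.0262). Ccl7, or MCP-3, had 115 and 285 in KSP-positive cells and 37.9 and 6.31 in KSP-negative cells (log2 difference 3.07, standard error 0.65, adjusted p = 0.0299). The last of these values lay under the floor, so the size of the Ccl7 difference depends on it, and was 3.55 with no floor and 2.27 with a floor at the 40th percentile. Ccl12, or MCP-5, had 158 and 148 in KSP-positive cells and 23.4 and 15.5 in KSP-negative cells, which is 8.01-fold higher (adjusted p = 0.0115). The spread between replicates was wide for Ccl2 and Ccl7 and narrow for Ccl12. Without KSP-negative replicate 2 the adjusted p was 0.0610 for Ccl2 (difference 1.82) and 0.0706 for Ccl7 (difference 2.26), while Ccl12 still passed.

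Related ligands stayed under the filter and were not tested. Ccl8, or MCP-2, had 60.4 and 34.7 in KSP-positive cells and 3.08 and 4.72 in KSP-negative cells. Both KSP-negative arrays were under the floor, which makes Ccl8 at least 3.73-fold higher against that floor. Ccl11, or eotaxin, had 17.2 and 29.2 in KSP-positive cells and was under the floor in both KSP-negative arrays, at 3.86 and 2.34. Ccr2, the receptor for Ccl2, Ccl7 and Ccl12, had 50.0 and 42.9 in KSP-positive cells and 49.4 and 35.2 in KSP-negative cells, which overlapped (log2 difference 0.15, adjusted p = 0.919). Another probe set of Ccr2 had 85.9 and 52.2 in KSP-positive cells and 22.1 and 23.2 in KSP-negative cells, without overlap. Its log2 difference was 1.56 (limma adjusted p = 0.201 among all probe sets), and it passed the filter only through the KSP-positive arrays. A dimmer one under the filter gave 0.50 without overlap, and one more was under the floor on all 4 arrays. These readings do not settle the size of the Ccr2 difference.

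Ccl3, Ccl4 and Ccl9, ligands known from macrophages, were also called higher. Ccl3, or MIP-1 alpha, had 515 and 547 in KSP-positive cells and 117 and 134 in KSP-negative cells, and was 4.24-fold higher (adjusted p = 0.0130). Ccl4, or MIP-1 beta, had 422 and 529 in KSP-positive cells and 117 and 121 in KSP-negative cells, and was 3.97-fold higher (adjusted p = 0.0163). Both genes had close replicates and no overlap, and both passed the test with each array left out in turn. Ccl9, a Ccr1 ligand of the mouse, had 594 and 271 in KSP-positive cells and 79.8 and 112 in KSP-negative cells (log2 difference 2.09, adjusted p = 0.0336). Its call was lost without KSP-positive replicate 1 (adjusted p = 0.128, difference 1.52) and without KSP-negative replicate 1 (adjusted p = 0.0718). Ccl6, the neighbour of Ccl9, had 153 and 210 in KSP-positive cells and 180 and 169 in KSP-negative cells, which overlapped (log2 difference 0.04, 95% interval -0.81 to 0.89). Its other probe set had 83.8 and 88.6 in KSP-positive cells and 52.6 and 44.1 in KSP-negative cells, without overlap. There the log2 difference was 0.84 (limma adjusted p = 0.420 among all probe sets). Ccl5, or RANTES, stayed under the filter, with 18.6 and 104 in KSP-positive cells and values under the floor, 4.41 and 6.59, in KSP-negative cells.

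Ccr1, a receptor of monocytes and macrophages for Ccl3, Ccl5, Ccl7 and Ccl9, was the only receptor called among the 6 tested. It had 89.3 and 86.1 in KSP-positive cells and 6.92 and 20.2 in KSP-negative cells, with no overlap (log2 difference 2.48, standard error 0.56, adjusted p = 0.0386). The lower KSP-negative value was under the floor. With a floor at the 40th percentile the difference was 1.24 (adjusted p = 0.134), and without KSP-negative replicate 1 the adjusted p was 0.0829. Another probe set of Ccr1, at the floor on 3 of the 4 arrays, gave a log2 difference of 0.14. Cx3cr1, the receptor of monocytes and resident macrophages for fractalkine, had 310 and 234 in KSP-positive cells and 105 and 49.4 in KSP-negative cells. The fractions did not overlap and the fold was 3.74, but the adjusted p of 0.0505 missed the threshold, and was 0.00799 to 0.0490 under 7 alternatives. Its ligand Cx3cl1, a chemokine tethered to epithelium and endothelium, had 238 and 153 in KSP-positive cells and 137 and 94.2 in KSP-negative cells, with no overlap (log2 difference 0.75, 95% interval -0.18 to 1.68).

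Of the remaining receptors, Ccr6 alone passed the filter. Ccr6, the receptor for Ccl20, had 89.9 and 24.4 in KSP-positive cells and 62.9 and 49.2 in KSP-negative cells, so its KSP-positive replicates lay on both sides of the KSP-negative ones (difference -0.25, 95% interval -1.66 to 1.17). Cxcr6, the receptor for Cxcl16, was under the filter, with 23.4 and 9.90 in KSP-positive cells and 36.6 and 50.9 in KSP-negative cells. It was the sole member whose mean lay over the filter in KSP-negative cells alone. Another probe set of Cxcr6, at the floor on 3 of the 4 arrays, gave a log2 difference of 0.26. Cxcr2, Ccr3, Ccr7 and Ccr10 were under the floor on all 4 arrays, which gives no order between the fractions. Ccr4, Ccr8, Ccr9, Cxcr5 and Xcr1 also stayed under the filter in both fractions.

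**Figure D3:**
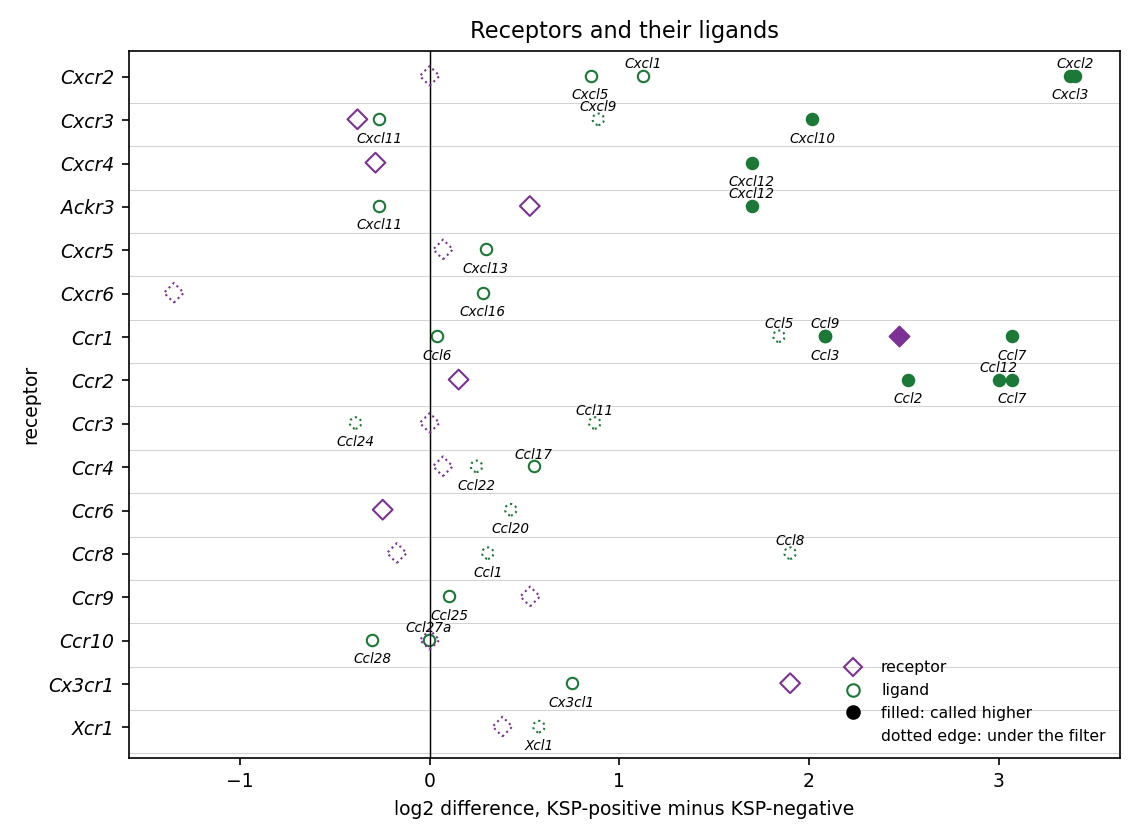
Log2 difference (x axis) of each receptor (diamond) and of the ligands known to bind it (circles), 1 receptor per row; filled symbols have an adjusted p under 0.05, and dotted edges mark genes under the filter. Ccr1 is the 1 row with both a filled receptor and filled ligands, while the ligands of Cxcr2 reach 3.40 beside a receptor at the floor.

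Several homeostatic CC ligands passed the filter and were not called. Ccl17, a ligand of Ccr4, had a log2 difference of 0.55, Ccl25, the thymic and gut ligand of Ccr9, 0.10, Ccl27a, the skin ligand of Ccr10, -0.00, and Ccl28, a mucosal ligand of the same receptor, -0.30. Their intervals ran from -1.54 to 1.73 at the outer ends. Ccl1, a ligand of Ccr8, had 47.6 and 27.7 in KSP-positive cells and 31.7 and 27.2 in KSP-negative cells, under the filter and with overlap. Ccl20, Ccl22, Ccl24, Cxcl15 and Xcl1 were under the filter in both fractions.

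Most of the genes called lie in clusters along 2 chromosomes (order from RefSeq genes of GRCm38.p6, with genes less than 200 kb apart in 1 cluster). On chromosome 11 the order Ccl2, Ccl7, Ccl11, Ccl12, Ccl8, Ccl1 held 3 called genes, and the 3 others were under the filter. The next cluster, Ccl5, Ccl9, Ccl6, Ccl3, Ccl4, held 3 called genes, with Ccl6 at 0.04 between Ccl9 and Ccl3. The other probe set of Ccl6 gave 0.84. On chromosome 5 the order was Cxcl5, Ppbp, Pf4, Cxcl3, Cxcl15, Cxcl1, Cxcl2, with Cxcl3 and Cxcl2 called. Cxcl10 lies between Cxcl9 and Cxcl11 in another cluster of chromosome 5. Ccr1 lies on chromosome 9 between Xcr1 and Ccr3, both under the filter.

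**Figure D4:**
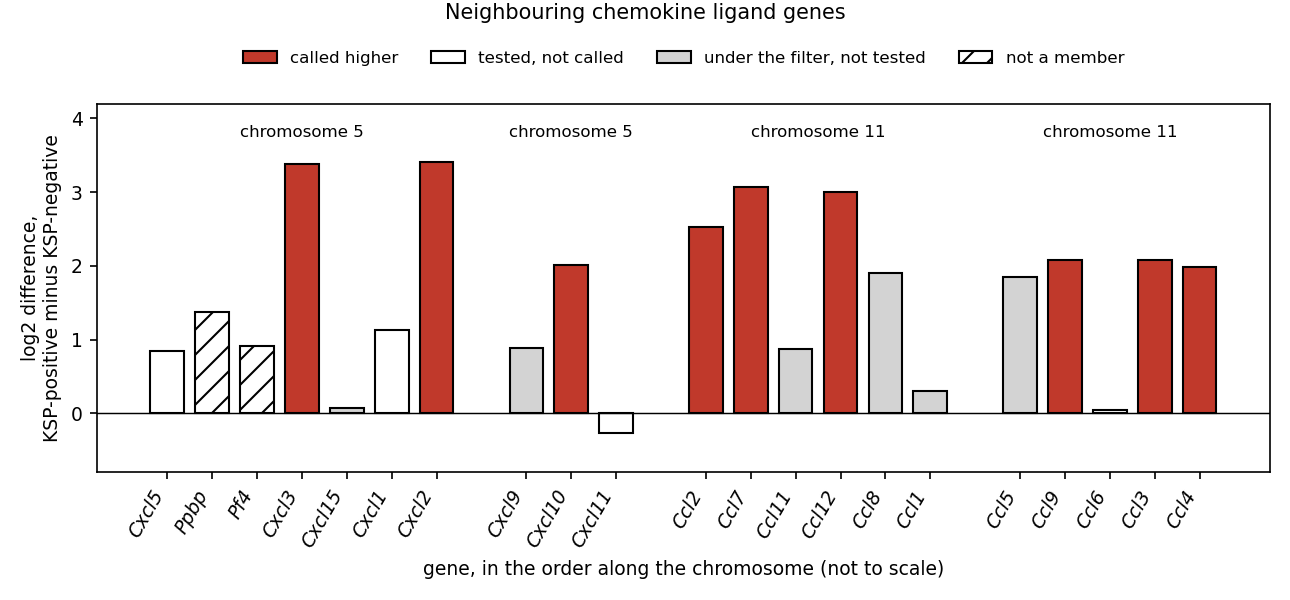
Log2 difference (y axis, KSP-positive minus KSP-negative) of ligand genes in their order along chromosomes 5 and 11, which is not to scale; red bars are genes called higher, white bars tested and not called, grey bars under the filter, and hatched bars (Ppbp, Pf4) chemokines outside the naming rule. Each of the 4 clusters holds genes called higher and genes that were not. Ccl6, at 0.04 on the probe set shown and 0.84 on its other one, lies beside Ccl9 at 2.09.

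Several probe sets read 18 of the members, and 7 genes had more than 1 that passed the filter. Tested each alone among all probe sets, 37 probe sets of members passed, and 5 were called higher (those of Ccl3, Ccl4, Ccl12, Cxcl2 and Cxcl3) and 0 lower. Over all 22618 probe sets tested, 172 were called higher and 154 lower. Ccl2, Ccl7, Ccl9, Ccr1 and Cxcl10 had 1 passing probe set each, and their calls were lost in this fit at unchanged differences. The call of Cxcl12 was lost too, on both of its passing probe sets (limma adjusted p = 0.0632 and 0.115). A dim probe set of Cxcl12 under the filter gave -0.31. The 3 probe sets of Cxcl1 gave 1.13, 1.48 and 1.30. Those of Cxcl13 gave 0.29 and 1.06, and those of Cxcl16 gave 0.28 and 0.82, where the probe set with the larger difference did not overlap between the fractions for either gene. The same held for Ccl6 (0.04 and 0.84) and Ccr2 (0.15 and 1.56). All 7 genes with several tested probe sets had differences of 1 sign, although their sizes were unequal.

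Chemokine-named genes outside the rule and the atypical receptors, which bind chemokines without Gi signalling, were mostly not called. Of 8 further chemokine-named genes, 8 passed and 0 were called. Pf4 and Ppbp, the platelet chemokines, had differences of 0.91 and 1.38 (adjusted p = 0.262 and 0.259), Cmtm3 had 0.98 and Cklf -0.29. Of 8 atypical and related receptors, 5 passed and 1 was higher. That was Ccrl2, which holds chemerin at the cell surface without signalling: it had 319 and 331 in KSP-positive cells and 74.1 and 55.6 in KSP-negative cells, which is 5.06-fold higher (adjusted p = 0.0124). Cmklr1, the signalling chemerin receptor, had a difference of 1.36 (adjusted p = 0.144) and Ackr4, a scavenger of homeostatic CC ligands, -0.18.

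Of 36 genes of receptor signalling (Gi subunits, kinases, arrestins and regulators), 36 passed, 1 was higher and 0 lower, with a median log2 difference of 0.19. Rgs1, which shuts off Gi signalling in leukocytes, was the gene called, with 536 and 176 in KSP-positive cells and 44.0 and 54.2 in KSP-negative cells (log2 difference 2.65, adjusted p = 0.0233, and 0.0664 without KSP-positive replicate 1). Grk5, a receptor kinase, had 1.49 (adjusted p = 0.0888), Stat3 1.05 and Rgs16 -1.21.

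Of 23 genes of the NF-kappaB pathway and inflammatory cytokines, 19 passed, 4 were higher and 0 lower, with a median of 0.93. Il6, an acute-phase cytokine, had 164 and 519 in KSP-positive cells and 57.1 and 20.8 in KSP-negative cells (log2 difference 3.08, adjusted p = 0.0266, and 0.0517 without KSP-negative replicate 2). It passed the filter only through the KSP-positive arrays, and 3 of the 17 genes over the filter in both fractions were called. Ptgs2, the inducible cyclooxygenase, had 4914 and 2972 in KSP-positive cells and 1108 and 302 in KSP-negative cells (log2 difference 2.72, adjusted p = 0.0225, and 0.0553 without the intensity trend). Il1b, the interleukin of activated macrophages, had 442 and 385 in KSP-positive cells and 66.5 and 122 in KSP-negative cells (log2 difference 2.20, adjusted p = 0.0183). None of these 3 overlapped between the fractions. Vcam1, an adhesion protein for leukocytes, was the fourth gene called (2.17, adjusted p = 0.0190, and 0.0607 with its probe sets averaged). Of the 19, 9 were more than 2-fold higher (7.92% of all genes) and 15 were higher without overlap (24.4%). By these measures 0 were lower (7.66% and 24.6%). Il1a, like Il6, passed only through the KSP-positive arrays. None of the NF-kappaB subunits and regulators on the list was called. Among them, Nfkbie had 427 and 352 in KSP-positive cells and 69.4 and 178 in KSP-negative cells, while Nfkbia overlapped between the fractions.

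Of 10 genes upstream of the interferon-induced ligands, 8 passed and 0 were called by limma, with a median of 0.62. Irf8, a factor of the macrophage lineage, stood at a log2 difference of 1.55 (adjusted p = 0.0772), while Ifnar2, Ifnar1 and Irf9 had 1.17, 0.89 and 0.66. Interferon gamma was under the floor on all 4 arrays. Of 25 genes that cleave or present chemokines, 20 passed, with 1 higher and 1 lower and a median of 0.29. Mmp13, a collagenase, had 364 and 172 in KSP-positive cells and 20.1 and 23.4 in KSP-negative cells (log2 difference 3.53, adjusted p = 0.00624). Like Mmp12, it passed the filter only through the KSP-positive arrays, which favours a call. Dpp4, the peptidase that trims the amino terminus of Cxcl12 and other chemokines, was lower, with 255 and 186 in KSP-positive cells and 905 and 594 in KSP-negative cells (log2 difference -1.75, adjusted p = 0.0338). Its adjusted p was 0.0960 without KSP-negative replicate 1 and 0.0585 without KSP-positive replicate 2. Sdc3, a heparan sulfate carrier, had 1.47 (adjusted p = 0.0565) and Mmp12, the macrophage elastase, was at least 8.80-fold higher, with both KSP-negative arrays under the floor (adjusted p = 0.0773).

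Marker lists of other cell types went in both directions. Of 22 macrophage and monocyte markers, 19 passed and 16 were higher, with a median of 2.84 and no overlap in any of the 19. Of these, C1qa, C1qc and Fcgr1 passed the filter only through the KSP-positive arrays, and 13 of the 16 over the filter in both fractions were called (median 2.77). The summed signal of the 22 was 34771 and 16383 in KSP-positive cells and 3267 and 3359 in KSP-negative cells. C1qa, a complement gene of macrophages, had 663 and 466 in KSP-positive cells and was under the floor in both KSP-negative arrays, while Cd163 was under the floor on all 4. Of 14 mesenchymal and stromal markers, 14 passed and 8 were higher, with a median of 1.88 and summed signals of 91827 and 67808 in KSP-positive cells and 41330 and 26186 in KSP-negative cells. All 10 markers of undifferentiated ES cells were lower, 8 of them over the filter in both fractions, with a median of -3.59 and summed signals of 1774 and 2089 in KSP-positive cells and 13011 and 24552 in KSP-negative cells. Of 15 kidney and KSP markers, 11 passed, with 0 higher and 3 lower and a median of -0.91. Without overlap, 7 of the 11 were lower and 2 higher. Summed signals were 1806 and 1990 in KSP-positive cells and 6703 and 10964 in KSP-negative cells. Most of the KSP-negative sums came from Epcam (3319 and 5205) and Cdh1 (2270 and 4137), so they say little of the other markers. Osr1, under the filter, went the other way, with 52.4 and 61.7 in KSP-positive cells and 14.3 and 18.4 in KSP-negative cells, as did Aqp1. The part of these cell types in the chemokine differences was not tested.

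Of the markers of other blood cells and of vessels, none was called. Of 11 neutrophil and mast cell markers 2 passed, of 12 T, NK and B cell markers 2 passed, of 4 megakaryocyte markers 3 passed, and of 10 endothelial markers 10 passed, with 0 called in any of these lists by limma. The 3 megakaryocyte markers had a median of 0.91, and the summed signal of the 4 on the array was 2314 and 5466 in KSP-positive cells and 2030 and 1796 in KSP-negative cells, without overlap. Of the T, NK and B cell markers, 6 were under the floor on all 4 arrays, including Cd3d, Cd3e and Cd3g of the T cell receptor complex. The endothelial markers overlapped between the fractions for 10 of 10 genes. Summed endothelial signals were 1713 and 5715 in KSP-positive cells and 3484 and 1953 in KSP-negative cells.

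**Figure D5:**
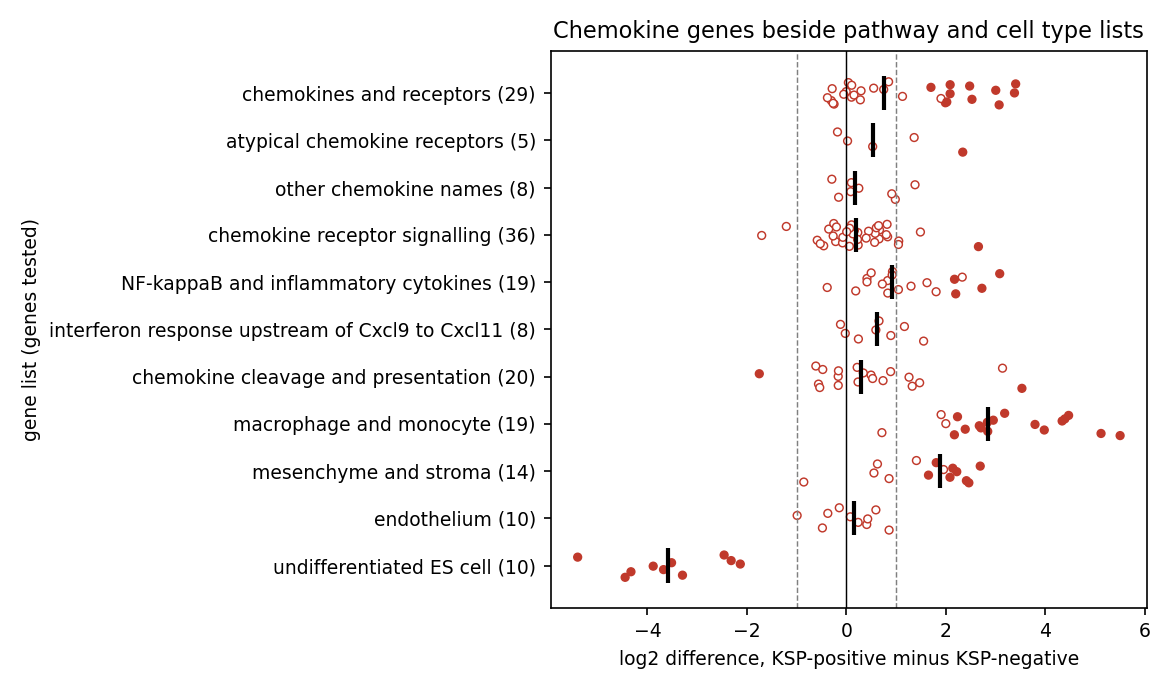
Log2 difference (x axis) of the tested genes of the chemokine family and of pathway and marker lists, with the number tested in parentheses; filled points have an adjusted p under 0.05, each median is a black bar and 2-fold is dashed. The chemokine median of 0.75 lies between that of receptor signalling (0.19) and that of macrophage markers (2.84). The chemokine and macrophage medians include 4 and 3 genes that passed the filter only through the KSP-positive arrays.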

How the data were processed

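Total RNA was purified by the authors with the RNeasy Mini kit, labelled in 2 cycles with biotin and hybridized to Affymetrix Mouse Genome 430 2.0 arrays. The deposited table holds a MAS5 signal intensity (linear scale) for each probe set of each array. The GeneSpring setting of the study is not given in the sources used here.

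Arrays were brought to 1 common 75th percentile. Before log2 was taken, signals under 12.3 (the 20th percentile over the 4 arrays) were set to that floor. The annotation gives 1 gene to 34945 of 45037 probe sets (64 controls left out), several genes to 932 and no gene to 9160. Of those with several genes, 4 carry a chemokine name and were not used. A probe set had to have a mean log2 signal above the 40th percentile, which 27022 had. Each gene was read by its brightest single-gene probe set, which gave 12849 genes. The number of arrays limits the precision.

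The test was limma 3.58.1 (R 4.3.3, empirical Bayes with an intensity trend, two-sided), with Benjamini-Hochberg adjustment over all genes tested. With 2 against 2 arrays an exact permutation test cannot reach 0.05, and none was used. The procedure was tested on simulated data. Every member is accounted for. Members past 2-fold or the threshold, receptors that passed the filter, and Ackr3 are given with all 4 values, and up to 4 genes of each pathway list with the smallest p are named. Marker genes were named after their values were seen. The members and lists were chosen with earlier results of these data known. Alternatives varied the scaling, floor, filter, choice of probe set and test, added a replicate block, and left out each array. Same-numbered replicates were not taken as pairs. Promoter sequences are from RefSeq (GRCm38.p6). Figures were drawn with matplotlib 3.10.9. Items withheld here are not reported.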

Additional observations from a re-analysis of the deposited data

How the results depend on the processing

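The count of 11 members called higher was 12 with the replicate number as a replicate block, which added Cx3cr1 (adjusted p = 0.0102), while calls over all genes went to 571 higher and 560 lower, against 236 and 212. The deviations of the arrays numbered 1 from their fraction means correlated at 0.166 over genes. Those of the arrays numbered 2 mirror them and add nothing, so the value does not establish a pairing. The count was 0 with no filter, where 0 of 18193 genes were called and 14 members had an unadjusted p under 0.05, 5 with every probe set tested alone, 6 with the methods' t-test unadjusted and 0 after Benjamini-Hochberg adjustment of it. The cause of these shifts was not tested. With each array left out in turn it ranged from 7 to 11, and was 7 without KSP-negative replicate 2. With no filter 1 member, Cxcr6, was more than 2-fold lower, and with each array left out 0 to 1 was (Ccr6, 1 without KSP-positive replicate 1). The other, dimmer probe set of Cxcr6 gave a log2 difference of 0.26. The median difference of the members was 0.31 with no filter and 1.41 with the filter at the 60th percentile. Without the intensity trend Ccl2, Ccl9 and Cxcl12 lost their calls (adjusted p = 0.0525, 0.0564 and 0.0705), and Cxcl12 did so when a gene's probe sets were averaged (0.0508).

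The sign of small differences was not stable. Ccl6 was -0.0512 when the deposited values were left unscaled and -0.0076 after quantile normalization, and Ccr6 was 0.0557 with a floor at the 40th percentile. With each array left out in turn the log2 difference ran from -0.19 to 0.27 for Ccl6, -0.15 to 0.14 for Ccl27a, -0.23 to 0.45 for Cxcl14, -0.78 to 0.21 for Cxcr4, -0.72 to 0.14 for Cklf, -0.76 to 0.16 for Ccl28, -1.19 to 0.69 for Ccr6, -0.76 to 0.65 for Cxcl17, -0.86 to 0.33 for Cxcl11, -0.94 to 0.18 for Cxcr3, -0.56 to 0.20 for Ackr4, -0.092 to 1.53 for Ccr2 and -0.0369 to 0.999 for Cxcl13. A sole array in a fraction was taken to vary like the other fraction. The median of all genes moved to -0.12 without scaling. All genes called but Cxcl2, Cxcl3, Ccl3, Ccl4 and Ccl12 lost their call with at least 1 array left out or with 1 other alternative besides no filter and the adjusted t-test. Depth in reads does not apply to arrays, and dim probe sets under the floor hold no order.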
